A study of Mus musculus with 8 samples.

Results

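The interleukin-6 family of cytokines and its shared receptor chain gp130 were followed in lung mesenchymal cells of mice with and without bleomycin injury. The genes were 10 listed by name: the ligands Il6, Il11 and Lif, the receptor chains Il6ra, Il11ra1, Lifr, Osmr and Il6st, the transcription factor gene Stat3 and the feedback inhibitor gene Socs3. They were matched by gene symbol to the probe sets of the array, and each gene was represented by its brightest probe set that names no other gene. Of the 10, 9 were matched among 22180 genes tested, and Il11ra1 was not analysed here.

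The cells came from lungs of C57BL/6J mice aged 11 weeks and kept free of specific pathogens. Control mice had received phosphate-buffered saline through the trachea and the other mice bleomycin, a DNA-damaging drug used to provoke lung fibrosis, and the lungs were taken on day 10. Cells negative for CD45, CD31 and EpCAM were sorted, a gate meant to leave out leukocytes, endothelium and epithelium. Some markers of such cells still gave signal in both groups, as described below. The RNA was hybridised to 8 arrays, 4 control and 4 bleomycin, and the labels do not say whether replicates were separate animals, so the p-values rest on the spread between these arrays, which may be only technical. All values are log2 intensities as deposited, and a difference is the bleomycin mean minus the control mean in log2 units, with its standard error (SE).

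Cytokines of this family signal through gp130, encoded by Il6st, which most cells carry. IL-6 and IL-11 first bind a receptor of their own, encoded by Il6ra and Il11ra1, and then bring a pair of gp130 chains together, whereas LIF joins gp130 to the LIF receptor and oncostatin M joins it to the oncostatin M receptor. The receptors activate Janus kinases, which phosphorylate STAT3, and STAT3 switches on Socs3, whose product blocks gp130 in turn. Fibroblasts are a known source of IL-6, IL-11 and LIF in the lung.

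The samples from injured lungs had higher levels of all 3 ligand genes measured and of the oncostatin M receptor gene, and a lower level of the IL-6 receptor gene. Lif was 2.33-fold, Il6 2.24-fold and Il11 1.61-fold higher, Osmr was 1.37-fold higher, and Il6ra was 3.24-fold lower (n = 4 arrays in each group). Smaller differences in Stat3, which was higher, and Lifr, which was lower, passed the test with all arrays and lost it when single arrays were left out. The shared chain Il6st and the feedback gene Socs3 did not pass. Of the 9 genes, 5 were higher and 2 lower at an adjusted p under 0.05 in limma, where 9.12% of all genes were higher and 8.24% lower, 17.4% in all. Brighter genes were called more often. Without the dimmest 50% of genes, 5 members were again higher and 2 lower, and 37.2% of the genes left were called. In 7 of the 9 the groups did not overlap, against 23.5% of all genes. The median difference was 0.25 over the 9 genes and 0.03 over all genes.

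The sequences upstream of the 3 ligand genes are shown because all 3 genes were higher on the bleomycin arrays. A search also found an AP-1 motif upstream of each. That motif was part of the reason for the choice, so finding it in all 3 is not a result. The windows are the 250 bases before a transcription start in the RefSeq promoter table, on build GRCm38.p6, written 5′ to 3′ in the direction of the gene. Capitals mark matches on either strand to TGANTCA (AP-1), TTGNNCAA (C/EBP), TTCNNNGAA (STAT) and the kB pattern of GGG, any 3 bases and TTCC. The Il6 window is chr5:30012864-30013113 on the + strand, the Il11 window is chr7:4778142-4778391 on the - strand and the Lif window is chr11:4257318-4257567 on the + strand.
Il6: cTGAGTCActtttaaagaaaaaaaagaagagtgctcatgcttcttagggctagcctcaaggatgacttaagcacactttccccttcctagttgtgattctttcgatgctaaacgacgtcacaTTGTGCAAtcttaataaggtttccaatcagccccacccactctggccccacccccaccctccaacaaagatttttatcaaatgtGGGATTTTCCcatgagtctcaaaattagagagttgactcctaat
Il11: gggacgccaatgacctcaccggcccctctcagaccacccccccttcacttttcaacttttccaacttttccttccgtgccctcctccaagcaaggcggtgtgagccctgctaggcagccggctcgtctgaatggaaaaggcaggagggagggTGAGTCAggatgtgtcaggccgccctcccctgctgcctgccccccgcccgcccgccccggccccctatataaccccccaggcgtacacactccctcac
Lif: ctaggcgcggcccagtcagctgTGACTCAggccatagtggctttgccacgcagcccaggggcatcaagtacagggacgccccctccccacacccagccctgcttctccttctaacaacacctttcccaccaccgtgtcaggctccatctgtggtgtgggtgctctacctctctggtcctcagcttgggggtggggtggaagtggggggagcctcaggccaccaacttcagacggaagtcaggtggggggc

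In the Il6 window TGAGTCA lies at bases -249 to -243 from the start, the C/EBP match TTGTGCAA at -128 to -121 and the kB match GGGATTTTCC at -44 to -35. In the Il11 window TGAGTCA lies at -98 to -92, and in the Lif window TGACTCA lies at -228 to -222. No 2 matches overlap. Il11 has another listed start further upstream, at chr7:4782858-4783107, whose window holds none of the 4 motifs, and the window printed for it lies inside the span of the gene. The other members have windows in the table too, and none of those holds the AP-1, C/EBP or kB motif. Socs3, the textbook STAT3 target, holds a STAT match at -154 to -146, in a window that also lies inside the span of its gene. Over all 32851 windows of this length, 6.75% hold the AP-1 motif, 5.65% the C/EBP, 4.65% the kB and 7.02% the STAT motif. A match is a description of the letters and was not tested as a binding site.

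Il6 encodes the cytokine that drives the acute phase response. It stood at 7.99, 8.08, 7.85 and 7.21 on control arrays 1 to 4 and at 8.90, 9.05, 8.83 and 9.01 on the bleomycin arrays. Every bleomycin array lay above every control array, with control replicate 4 the lowest of all and the bleomycin arrays close together. The difference was 1.16 ± 0.17 (SE, n = 4 each; limma adjusted p = 0.00124). Without control replicate 4 it was 0.97 (adjusted p = 0.000573).

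Lif encodes leukemia inhibitory factor. Its levels were 7.13, 7.17, 7.32 and 7.44 on the control arrays and 8.29, 8.36, 8.76 and 8.55 on the bleomycin arrays. The groups were separated by 0.85, the widest gap among the members that rose. The difference was 1.22 ± 0.12 (n = 4 each; limma adjusted p = 0.000142), which ranks 301 among the rises of all 22180 genes, with Il6 at rank 333.

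Il11 encodes a cytokine that acts on fibroblasts as well as coming from them. It was at 5.31, 5.32, 5.07 and 5.31 on the control arrays and 5.83, 6.04, 5.91 and 5.97 on the bleomycin arrays. It is the dimmest member, near the middle of all genes (percentile 51.1 by mean), and 24.5% of the rows to which the annotation gives no gene were brighter. The groups did not overlap, and the difference was 0.69 ± 0.09 (n = 4 each; limma adjusted p = 0.000763).

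**Figure D1:**
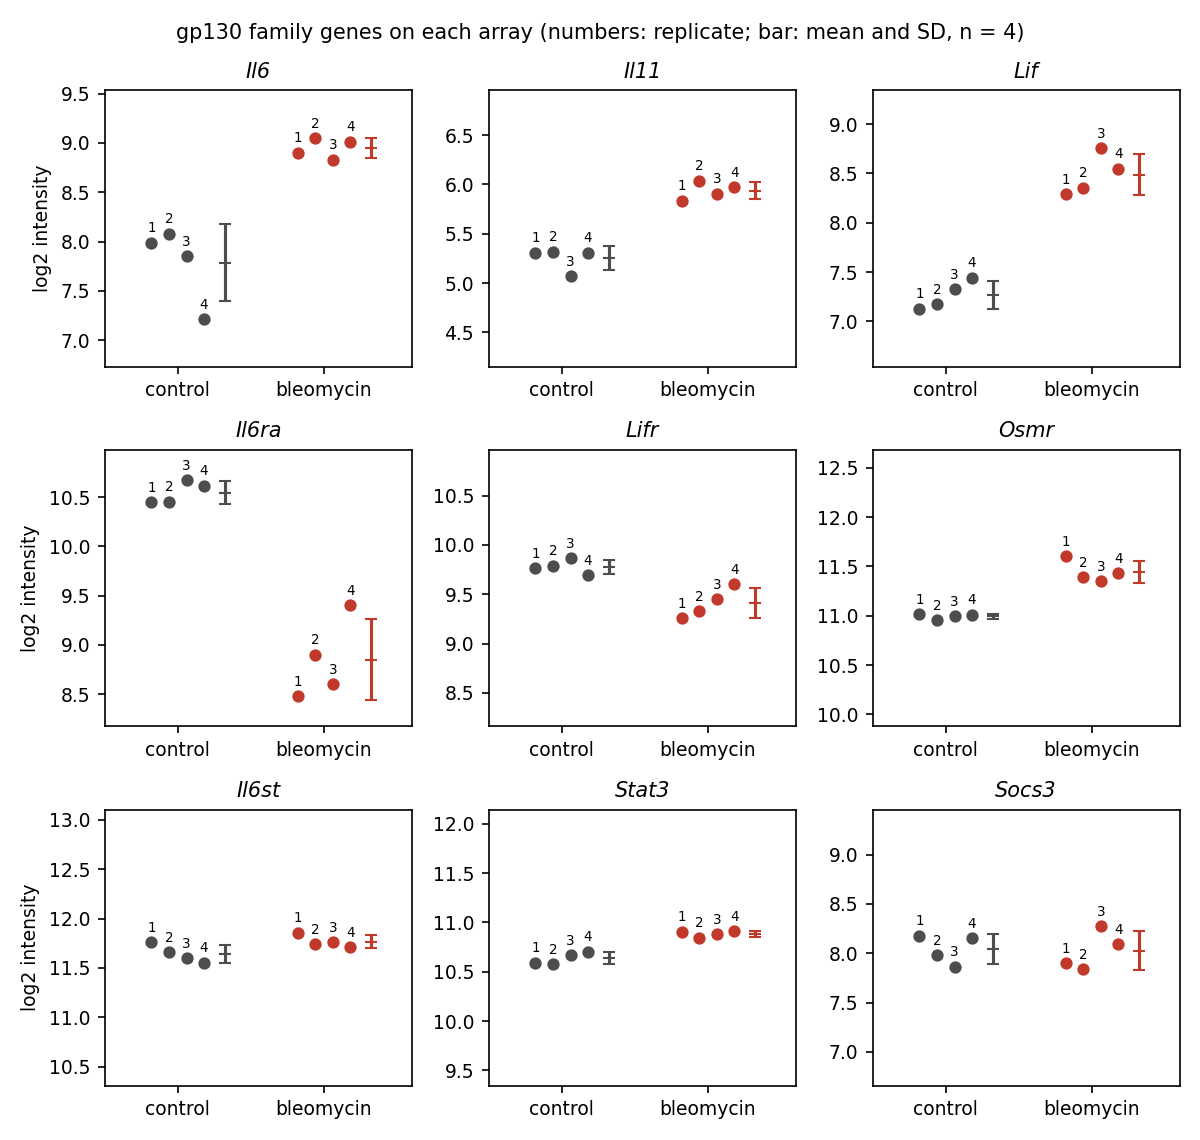
The 9 measured members on each array, as log2 intensity, with control arrays in grey and bleomycin arrays in red, the replicate number beside each point, and the mean with its SD (n = 4); each panel spans the same height. The points do not overlap for Il6, Il11, Lif, Il6ra, Lifr, Osmr and Stat3, and they do for Il6st and Socs3.

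Il6ra encodes the receptor chain that binds IL-6 itself, and cells that lack it can respond to IL-6 only with the soluble receptor. It stood at 10.45, 10.45, 10.67 and 10.61 on the control arrays and at 8.48, 8.90, 8.60 and 9.41 on the bleomycin arrays. All bleomycin arrays were lower by at least 1.04, and replicate 4 was the least low of them. The difference was -1.70 ± 0.18 (n = 4 each; limma adjusted p = 0.000199), which ranks 48 among the falls of all 22180 genes. Among the bleomycin arrays Il6ra and the mean of the immediate early genes, described with Socs3, had the same order, lowest on replicate 1, then 3, 2 and 4. The difference in Il6ra remained between -1.88 and -1.58 when single arrays were left out, with an adjusted p of at most 0.00117.

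Lifr encodes the receptor that LIF shares with several other ligands of the family. Its levels were 9.76, 9.79, 9.87 and 9.70 on the control arrays and 9.26, 9.33, 9.45 and 9.60 on the bleomycin arrays. The groups came within 0.09 of each other, at bleomycin replicate 4 and control replicate 4. The difference was -0.37 ± 0.10 (n = 4 each; limma adjusted p = 0.025). This call was lost without any 1 of control replicates 1, 2 and 3 or bleomycin replicates 1, 2 and 3 (adjusted p up to 0.0734), with differences between -0.43 and -0.32 over all such omissions.

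Osmr encodes the chain that pairs with gp130 to bind oncostatin M. It was at 11.01, 10.96, 11.00 and 11.01 on the control arrays, which hardly differed, and at 11.60, 11.39, 11.35 and 11.43 on the bleomycin arrays. The difference was 0.45 ± 0.08 (n = 4 each; limma adjusted p = 0.00485), and the groups were 0.34 apart. No omission of 1 array ended the call, and the largest adjusted p was 0.0163.

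Il6st, the gene of gp130, is among the brightest genes of the array (percentile 99.5 by mean). It stood at 11.76, 11.66, 11.60 and 11.55 on the control arrays and at 11.86, 11.74, 11.76 and 11.71 on the bleomycin arrays. The groups overlapped, and the difference of 0.12 ± 0.08 did not pass (n = 4 each; limma adjusted p = 0.369). Its 95% interval runs from -0.06 to 0.31.

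Stat3, the transcription factor that the receptors activate, was at 10.59, 10.58, 10.67 and 10.70 on the control arrays and 10.91, 10.84, 10.88 and 10.91 on the bleomycin arrays. The groups did not overlap, yet the difference was small, at 0.25 ± 0.08 (n = 4 each; limma adjusted p = 0.0491). The call was lost in each of the 8 fits without 1 array, with adjusted p between 0.0623 and 0.115, and with median centring (0.20, adjusted p = 0.111) or quantile normalization. With the replicate number as a block its adjusted p was 0.0763. The arrays measure the transcript and not the phosphorylated protein.

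Socs3, the inhibitor that STAT3 induces, stood at 8.18, 7.98, 7.86 and 8.15 on the control arrays and at 7.90, 7.84, 8.28 and 8.09 on the bleomycin arrays. The groups lay over each other, and the difference was -0.02 ± 0.12 (n = 4 each; limma adjusted p = 0.944), with a 95% interval from -0.28 to 0.25. A second, dimmer probe set of Socs3 differed by 0.15 ± 0.21 (adjusted p = 0.683). Immediate early genes, which cells switch on within minutes of a stimulus, were mostly lower on the bleomycin arrays, while Socs3 did not pass. Of 22 measured, 16 were lower and 2 higher, with a median difference of -0.55, and their mean level was 10.39 to 10.45 on control and 9.76 to 10.12 on bleomycin arrays. Those called are 81.8% of the list, against 17.4% of all genes and 37.2% of those left in the refit without the dimmest 50%. Atf3, Fosb and Klf4 led the falls at -1.80, -1.33 and -1.10, and Myc and Egr3 rose by 0.99 and 0.86. With that mean as a covariate, a fit added after the data were seen, Socs3 differed by -0.05 (adjusted p = 0.995). The covariate itself separates the groups, and no member passed in that fit, in which 0.018% of all genes were called (3 members were higher and none lower at an unadjusted p under 0.05). There Il6 differed by 1.31, Lif by 1.32, Il11 by 0.86 and Il6ra by -0.58.

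**Figure D2:**
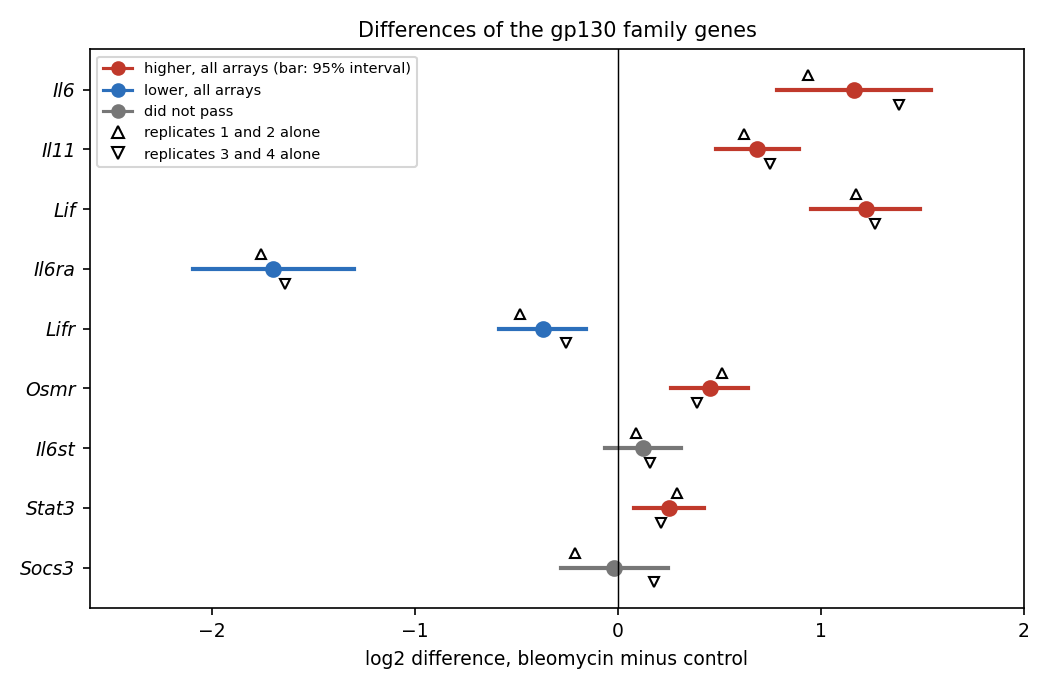
Log2 difference, bleomycin minus control, of the 9 members with its 95% interval over all 8 arrays (red higher, blue lower, grey did not pass), and the differences within replicates 1 and 2 and within replicates 3 and 4 as open triangles. The triangles of every member but Socs3 lie on the side of 0 that the full set gives. For all members but Il6st and Socs3 the groups do not overlap, so that side was fixed beforehand.

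Deviations from the group means were correlated positively between control and bleomycin arrays within replicates 1 and 2 and within replicates 3 and 4, and negatively across those pairs (between -0.14 and 0.13 over all genes), so the comparison was also made within each pair. Within replicates 1 and 2, Il6 differed by 0.94, Lif by 1.17, Il11 by 0.62 and Il6ra by -1.76, and these 4 passed (limma adjusted p between 0.00534 and 0.0496). There 3.78% of all genes were called higher and 3.76% lower. Within replicates 3 and 4, Il6 differed by 1.39, Lif by 1.27 and Il6ra by -1.64 and passed (adjusted p between 0.0241 and 0.0424), while Il11 at 0.75 did not (adjusted p = 0.0502). There 2.27% of all genes were called higher and 0.992% lower. Osmr differed by 0.51 and 0.39 in the pairs, Lifr by -0.48 and -0.26 and Stat3 by 0.29 and 0.21, and none of these passed with 2 arrays a group. Socs3 differed by -0.21 within replicates 1 and 2 and by 0.18 within replicates 3 and 4.

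Markers of cells outside the gate differed between the groups as well. Of 18 epithelial markers 13 were lower and none higher, and their mean level was 7.76 to 8.49 on control and 6.46 to 7.13 on bleomycin arrays. Of 16 endothelial markers 12 were lower and none higher, with means of 7.90 to 8.96 and 7.02 to 7.51. Those called are 72.2% of the epithelial and 75% of the endothelial list, against 17.4% of all genes. The largest falls were in Sftpa1, Slc34a2 and Lamp3 (-2.69, -2.69 and -2.44) and in Ptprb, Tek and Ednrb (-1.73, -1.69 and -1.62). Signal of some such markers remained on the bleomycin arrays, where Pecam1 averaged 8.6, Ednrb 6.8 and Lamp3 5.9. Epcam averaged 4.4 there, close to the medians of rows without a gene. By mean level over all 8 arrays Pecam1 was at percentile 93.5 of all genes, Ednrb at 78.1, Lamp3 at 71.4 and Epcam at 36.5. In bulk samples fewer cells of a type and less RNA per cell cannot be told apart.

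Both marker means were higher on control replicates 1 and 2 than on 3 and 4. Il6 ran the same way, averaging 8.04 on replicates 1 and 2 and 7.53 on 3 and 4, where replicate 3 was at 7.85 and replicate 4 at 7.21. Il11 averaged 5.31 and 5.19, but only replicate 3 was lower, at 5.07, and replicate 4 was at 5.31. Il6ra ran the other way from the marker means, at 10.45 and 10.64, as did Lif at 7.15 and 7.38. Among the bleomycin arrays replicate 4 was highest both for Il6ra, at 9.41, and for the epithelial and endothelial means, at 7.13 and 7.51. Without control replicates 1 and 2, where 9.91% of all genes were called, Il6ra differed by -1.79 (limma adjusted p = 0.00412), Il6 by 1.41 (0.00338), Lif by 1.10 (0.0044), Il11 by 0.75 (0.00806) and Osmr by 0.44 (0.0464). With the mean of the epithelial and endothelial markers as a covariate, added after the data were seen, Il6 differed by 1.88 and passed (adjusted p = 0.0378). This covariate also separates the groups, so its fit can hardly split a group difference from a marker difference. Il6ra differed by -1.64, Il11 by 0.82, Lif by 0.81 and Osmr by 0.50 there and did not pass (adjusted p between 0.13 and 0.282), in a fit where 0.356% of all genes were called.

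Leukocytes also make and receive these cytokines. Of 17 macrophage and monocyte markers 9 were higher and none lower, led by C1qb, C1qa and C1qc (2.02, 1.02 and 1.01), and their mean was 5.95 to 6.22 on control and 6.35 to 6.65 on bleomycin arrays. The 9 called are 52.9% of the list, against 17.4% of all genes. At an unadjusted p under 0.05, 10 of the 17 were higher and 3 lower. Those 3 were the lysozyme gene Lyz2, the monocyte gene Ly6c2 and Ptprc, the gene of CD45, which differed by -0.57, -0.42 and -0.48 and did not pass (limma adjusted p = 0.0951, 0.16 and 0.0529); Lyz2 and Ly6c2 were chosen after their values were seen. The part of these cells in the rises of Il6, Lif and Il11 was not tested. None of 10 neutrophil markers passed in limma (1 was lower at an unadjusted p under 0.05), and their mean was 4.05 to 4.23 over all arrays. Of 12 lymphocyte markers 3 were lower, Cd79a, Gzma and Cd79b by -0.84, -0.82 and -0.57. Of 8 mesothelial markers 2 were lower, Upk1b and Cdh1, each by -0.96. In the lymphocyte and in the mesothelial list 25% were called, against 17.4% of all genes. Cdh1 is also in the epithelial list and counted among its falls, and a dimmer probe set of Cdh1 differed by 0.19 ± 0.17 and did not pass.

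The mesenchymal identity of the samples was visible in both groups. Pdgfra was at 12.52 to 12.63 on control and 12.04 to 12.25 on bleomycin arrays, Pdgfrb at 10.03 to 10.32 and 10.84 to 11.31, and Col1a1 at 11.64 to 12.14 and 12.67 to 12.97. Of 14 mesenchymal markers 8 were higher, led by Acta2, Cspg4 and Des (1.92, 1.37 and 1.33), 2 were lower, Tcf21 and Pdgfra (-0.64 and -0.43), and their mean was 10.12 to 10.28 on control and 10.69 to 10.89 on bleomycin arrays. Those called are 71.4% of the list, against 17.4% of all genes and 37.2% of those left in the refit without the dimmest 50%. Of the gate's own genes, Pecam1 (CD31) was lower by -1.31 (limma adjusted p = 0.00486) and Epcam differed by -0.57 (adjusted p = 0.0547).

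**Figure D3:**
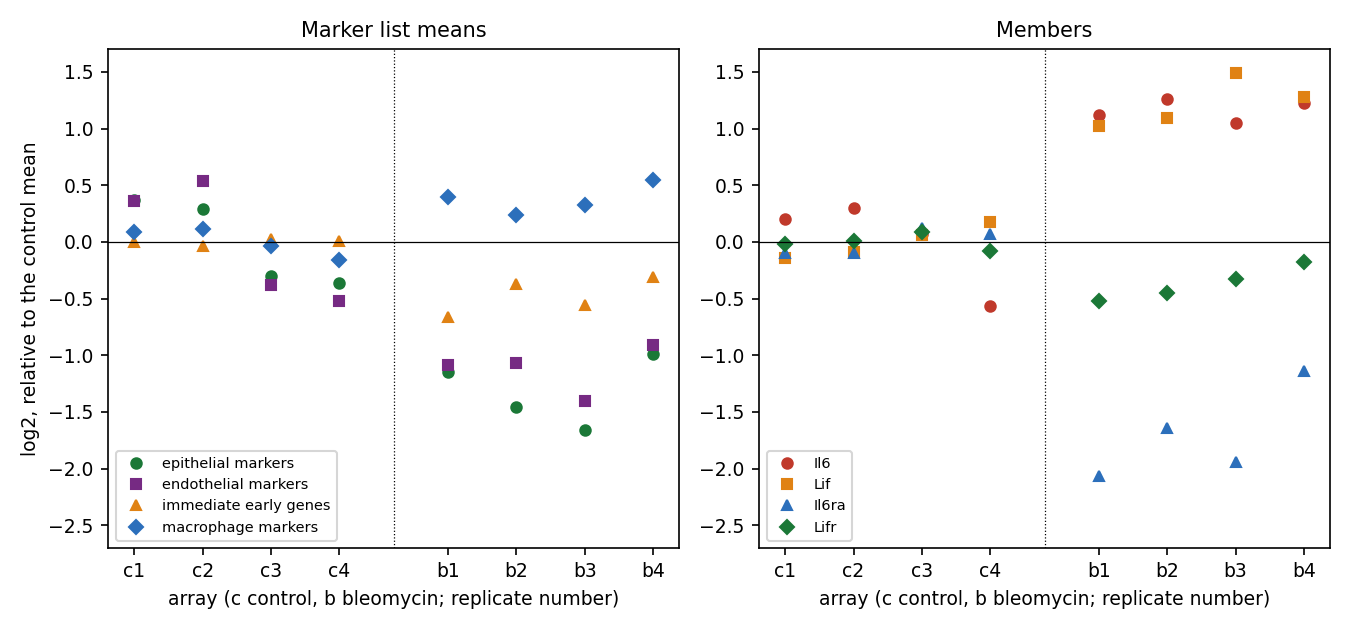
Left, the mean of the epithelial, endothelial, immediate early and macrophage lists on each array; right, Il6, Lif, Il6ra and Lifr; both as log2 relative to the mean of the control arrays. The epithelial and endothelial means are higher on control replicates 1 and 2 than on 3 and 4, as is Il6, while Il6ra and Lif are lower there.

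The remaining ligands of the family did not pass. Of 7 measured, none was called in limma (1 higher and 1 lower at an unadjusted p under 0.05), and their median difference was -0.02. Their mean level was 5.04 to 5.15 on control and 5.07 to 5.18 on bleomycin arrays, not far above the medians of rows without a gene. The brightest of the 7, Ctf1 (cardiotrophin 1), differed by 0.09 ± 0.12 and Il27, a subunit of interleukin 27, by -0.11 ± 0.14. Osm, whose product is the ligand of the receptor encoded by Osmr, stood at 4.79, 5.09, 4.71 and 5.19 on the control and 5.27, 5.23, 5.82 and 5.35 on the bleomycin arrays. The groups did not overlap, but the difference of 0.47 ± 0.15 did not pass (n = 4 each; limma adjusted p = 0.0592). Osm was chosen after its values were seen. It is mainly known as a product of leukocytes.

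Among 4 other receptor chains 1 rose. That is 25% of a short list, against 17.4% of all genes called, so the count itself says little. Il27ra, the chain that pairs with gp130 for interleukin 27, was at 6.41, 6.17, 6.26 and 6.30 on the control and 7.49, 7.14, 7.46 and 7.14 on the bleomycin arrays. The groups did not overlap, and the difference was 1.02 ± 0.11 (n = 4 each; limma adjusted p = 0.000239).

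Below the receptors, 1 of 11 kinases, adaptors and STAT genes rose and 2 fell; the median of the list was 0.06. These are 27.3% of the list, against 17.4% of all genes called. The single rise is near the 9.12% of all genes that were higher. A refit without the dimmest 30% of genes called 28.4% of the rest. The list share is near that, though it comes from the fit with all genes. The kinase gene Jak2 rose from 8.71 ± 0.11 to 9.62 ± 0.26 (SD, n = 4 each), by 0.91 ± 0.13 (limma adjusted p = 0.00102). Jak1, the kinase most tied to gp130 and also chosen after its values were seen, differed by -0.16 ± 0.08 (adjusted p = 0.194). Stat5b, a STAT that serves growth hormone, fell from 8.74 ± 0.07 to 7.95 ± 0.14 (SD), by -0.79 ± 0.09, and the docking protein gene Gab1 differed by -0.47 ± 0.08.

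Of 16 feedback inhibitors, phosphatases and receptor-cutting proteases 4 rose and 1 fell, and the list median was 0.13. These are 31.2% of the list, against 17.4% of all genes in the same fit. The refit without the dimmest 30% called 28.4% of the genes left. Of the 4 rises, 2, Socs5 and Adam10, were lost when single arrays were left out. Socs1, an inhibitor of Janus kinases best known for restraining interferon signalling, rose by 0.55 ± 0.10 (limma adjusted p = 0.00456), from 5.82 ± 0.11 to 6.36 ± 0.15 (SD, n = 4 each). The phosphatase gene Ptpn1 rose by 0.45 ± 0.10, and Pias1, an inhibitor of STAT binding to DNA, fell by 0.39 ± 0.09. Socs5 and Adam10, a protease that can cut receptors from the cell surface, rose by 0.39 and 0.36; Adam10 was chosen after its values were seen. Socs5 lost its call without any 1 of control replicates 2 and 3 and bleomycin replicates 1 and 3 (adjusted p up to 0.0725), and Adam10 without control replicate 3 (0.0502).

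Acute phase and other genes that STAT3 can switch on went both ways. Of 36 measured, 15 rose and 6 fell, and the median difference was 0.34. These are 58.3% of the list, against 17.4% of all genes in the same fit. The refit without the dimmest 30% called 28.4% of the genes left. The rises of Fgb and Steap4 and the fall of Pim1 were lost in 7, 6 and 3 of the 8 fits without 1 array. Fgb was also dim, at percentile 14.5 by mean. The serum amyloid gene Saa3 rose by 3.22 ± 0.24, the metalloproteinase inhibitor gene Timp1 by 2.20 ± 0.14 and haptoglobin, Hp, by 1.99 ± 0.16. The survival gene Bcl2l1 differed by -1.04 ± 0.19 and the transcription factor gene Cebpd by -0.84 ± 0.12. The vascular growth factor gene Vegfa fell from 10.54 ± 0.23 to 9.54 ± 0.31 (SD, n = 4 each; limma adjusted p = 0.00235). Most of these genes answer to other factors as well, and the list shares Junb and Myc with the immediate early genes. Over these 5 lists together 21 genes rose and 9 fell, and the immediate early list is not counted in them.

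**Figure D4:**
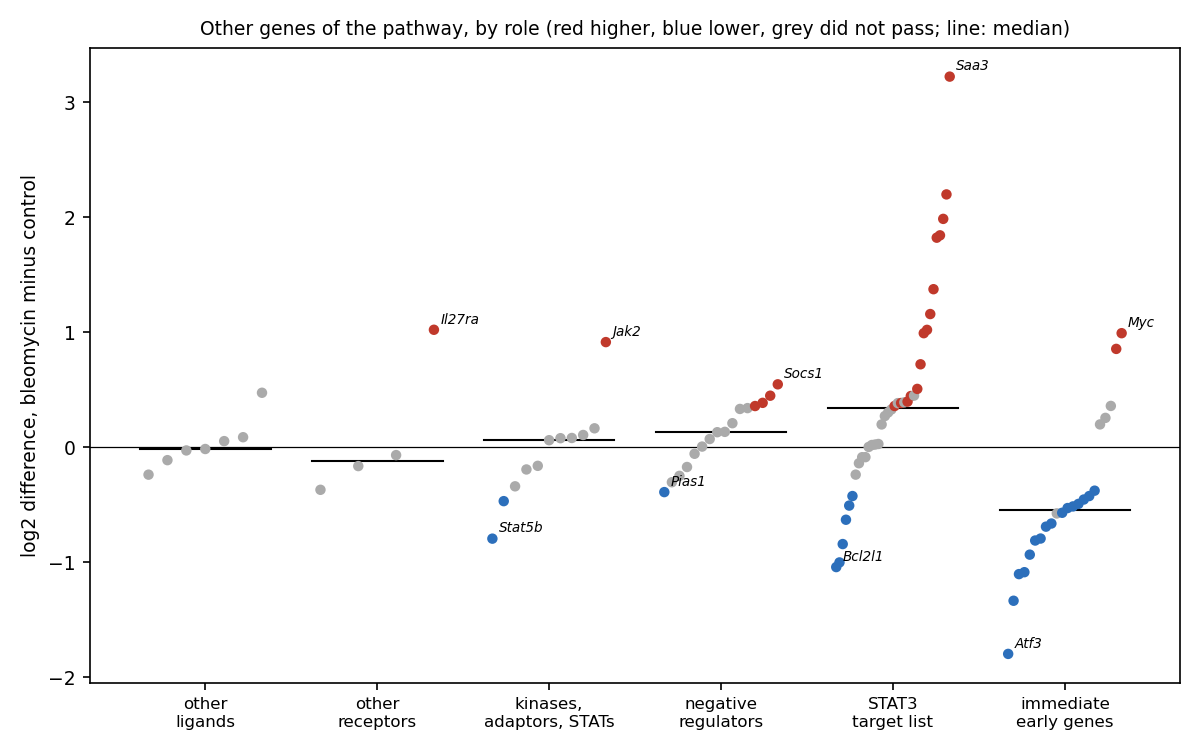
Log2 difference, bleomycin minus control, of every measured gene in 5 lists of the pathway and in the immediate early list; each point is 1 gene (red higher, blue lower, grey did not pass) and the line is the median of the list. The largest rise and fall that passed are named in each list; the other ligands hold no gene that passed, and the immediate early list lies mostly below 0.

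Genes whose profiles over the 8 arrays lay nearest to a member were found by the root mean square distance between log2 values after each gene's control mean was subtracted. This was done for the members that passed with a difference of at least 1 in size, which were Il6, Lif and Il6ra. Nearest to Il6 were Clec7a, a receptor for fungal glucans on myeloid cells, at 0.14, Phldb2 at 0.18 and the collagen-binding proteoglycan gene Fmod at 0.19. Nearest to Lif were the adhesion molecule gene Kirrel3 and the interferon regulatory factor gene Irf7, each at 0.11, and Shisa4 at 0.13. Nearest to Il6ra were Cyp27a1, which encodes sterol 27-hydroxylase, at 0.05, the tau gene Mapt at 0.13 and Kank3 at 0.14. Cyp27a1 fell by 1.68 ± 0.19, against -1.70 for Il6ra. The likeness is a description of 8 arrays in 2 groups.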

How the data were processed

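Per the labels' protocols, biotinylated cRNA was made from 100 ng of total RNA for an Affymetrix array. The deposited table holds 1 value per probe set and array, from 0.24 to 13.6, and is taken as log2 intensity. Its scale, background correction and normalization, and a genome build, are not stated in the labels. Of 41345 rows, 23521 name 1 gene, 1814 several and 16010 none in the platform annotation. Only rows with 1 gene were tested, each of the 22180 genes by its brightest row over all 8 arrays. Rows without a gene had medians of 4.44 to 4.52 on control and 4.20 to 4.35 on bleomycin arrays. Arrays give no depth, and their number limits the precision.

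Groups came from the sample titles. The test was the moderated one of limma 3.58.1 (lmFit, eBayes; R 4.3.3). It was two-sided, p-values were adjusted by Benjamini-Hochberg over all genes tested, and the threshold was 0.05. It was checked on simulated data. Of all calls 52.5% were rises, against 41.2% with each array centred on its median and 61.8% after quantile normalization (2567 higher, 1589 lower). Same-numbered arrays of the groups deviated together with correlations of 0.13, 0.06, 0.11 and 0.06, not all over 0.1, so the numbers were not taken to pair the samples. The members, lists and tests were chosen with earlier results of these data known. Named are the members, up to 3 passing rises and falls of each list or else its 2 brightest genes, the gate's genes, Pdgfra, Pdgfrb, Col1a1 and the nearest profiles; not every eligible gene is named. Osm, Jak1, Adam10, Lyz2, Ly6c2, Fgb, Steap4 and Pim1 fall outside this rule and were chosen after their values were seen. Promoter windows are from RefSeq, and figures were drawn with matplotlib 3.10.9. Alternatives are in the closing section.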

Additional observations from a re-analysis of the deposited data

Results flagged for a closer look

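Il11 on control replicate 3 stood at 5.07, apart from the other control arrays at 5.31 to 5.32, by Dixon's test for groups of 4. It was the 1 sample set apart in 18 groups tested, and chance sets apart about 1 in 20. Without that array Il11 differed by 0.63 (limma adjusted p = 0.00286).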

How the results depend on the processing

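With all 8 arrays 5 members were higher and 2 lower, with 21 and 9 pathway genes and 2022 and 1828 of all genes. When each array was left out in turn, 4 members were higher and 1 to 2 lower, with 17 to 21 and 8 to 10 pathway genes and 1497 to 1987 and 1306 to 1883 of all genes. With the replicate block 4 members were higher and 2 lower, against 1937 and 1838 of all genes, and the 1 call it changed among members was that of Stat3. A threshold of 0.01 left 4 members higher and 1 lower, 16 and 7 pathway genes, and 1079 and 879 of all genes. Replicates 1 and 2 alone gave 3 members higher and 1 lower, 10 and 6 pathway genes, and 838 and 833 of all genes. Replicates 3 and 4 alone gave 2 and 1 members, 12 and 2 pathway genes, and 503 and 220 of all genes. Without the first 2 control arrays 4 members were higher and 1 lower, with 16 and 6 pathway genes and 1205 and 992 of all genes. With the epithelial and endothelial covariate, limma called 1 member higher and 0 lower (4 and 1 at an unadjusted p under 0.05), 4 and 0 pathway genes (17 and 9 unadjusted), and 70 and 9 of all genes. With the immediate early covariate it called 0 and 0 members (3 and 0 unadjusted), 0 and 0 pathway genes (7 and 1 unadjusted), and 4 and 0 of all genes (911 and 571 unadjusted). With replicates 1 and 2 against 3 and 4 as a term every member call was kept. Both covariates, and a fit on protein-coding genes, were added after seeing the data; the cause of the lost calls was not tested.

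Il6, Il6ra, Il11, Lif, Lifr, Osmr and Stat3 kept their direction in all 25 alternatives. The groups of these genes did not overlap, so any subset of the arrays had to give that direction. Several other settings leave the difference itself unchanged, so the kept direction says little. Socs3, never called, changed sign with quantile normalization (0.0164), the mean of its probe sets (0.0674), array weights (0.0193), replicates 3 and 4 alone (0.18), without the first 2 control arrays (0.0189) and when single arrays were left out (-0.100 to 0.0455). Il6st, never called, turned to -0.0606 with the immediate early covariate. Dim probe sets, among the members that of Il11, limit what a difference can show.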
